A study of Mus musculus with 26 samples.

Results

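The AP-1 transcription factors examined here were Fos, Fosb, Fosl1, Fosl2, Jun, Junb, Jund and Atf3, which are 8 of the 18193 genes measured in a panel of 26 mouse skin cell lines. These genes have 12 probe sets that name 1 gene each, and the one of highest mean level stands for its gene here. A gene entered the tests where it lay above its array's median on 2 or more arrays, which 7 of the 8 members and 12641 genes in all did. Fosb did not pass. Levels are the authors' deposited log2 values, made by RMA, which subtracts background, gives all arrays the same distribution and combines the probes of a set, with 1 array per line.

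All lines were grown in serum and taken in log phase, with no treatment. The reference group was C5N and NK (n = 2), lines of immortalised keratinocytes, of which NK came from a mouse lacking p53. P6 came from a benign papilloma. The squamous carcinoma lines flagged as having no spindle pathology (n = 12) were PDV, PDVC57, B9, B9ras, B9rassmad, E4, SN161, MSC12, MSC11B, MSC7A, MSCP1 and MSCP5. Of these, SN161 came from a tumour of a Spretus/NIH mouse and the MSC lines from tumours of Spretus/CBA mice, giving 6 Spretus-cross lines and 6 others. The spindle carcinoma lines (n = 7), which have an elongated and fibroblast-like form, were A5, CarB, CarC, D3, D3DP, H11 and MSN2. Outside every comparison stood 2945CA and MSCb1, whose spindle state is not stated, B9Smad, which is called spindle in one label and not in another, and a keratinocyte line whose label and flag conflict. The labels give no age or passage. The closest arrays over all probe sets were A5 with H11 (r = 0.9928), PDV with MSCP1 (0.9911) and PDV with B9ras (0.9904). Next came B9ras with MSCP1 (0.9884) and D3DP with MSN2 (0.9869). MSCP1 is a Spretus-cross line, while PDV and B9ras are among the others. Each line is 1 culture with no repeat, so the p-values measure the spread between lines. The main fits treat the lines as independent, although several share a name stem.

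AP-1 is a dimer of basic leucine zipper proteins that binds short DNA elements in promoters and enhancers. Jun proteins can pair with each other or with Fos proteins, while Fos proteins need a Jun partner, and Atf3 can pair with Jun proteins or with itself. Fos, Fosb, Jun, Junb and Atf3 are immediate early genes, switched on within minutes by serum, growth factors or stress, whereas Fosl1 and Fosl2, whose proteins lack a strong activation domain, respond later and can stay high under sustained ERK signalling. In mouse skin, Fos is known to be needed for the progression of papillomas to carcinomas.

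Serum-responsive members are known to be switched on through short elements just upstream of their start. Promoter sequence is shown for Fos, Jun and Atf3, which had a motif match in the 120 bases before the start. Fosb and Junb, also immediate early genes, had no match in those bases and are not printed. RefSeq (GRCm38.p6) gave windows of 250 bases before to 50 after the start for 7 of the 8 members, and the last 120 bases before the start are printed for Fos (chr12:85473770-85473889, plus strand), Jun (chr4:95052223-95052342, minus strand) and Atf3 (chr1:191183334-191183453, minus strand). Capitals mark motif matches, in Fos TGACGT and TATAAA, in Jun TGACATCA and in Atf3 ACGTCA.
Fos: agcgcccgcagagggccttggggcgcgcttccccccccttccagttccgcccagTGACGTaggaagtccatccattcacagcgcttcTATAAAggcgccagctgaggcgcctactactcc
Jun: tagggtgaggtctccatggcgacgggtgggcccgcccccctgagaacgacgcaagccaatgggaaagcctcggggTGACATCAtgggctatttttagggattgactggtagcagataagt
Atf3: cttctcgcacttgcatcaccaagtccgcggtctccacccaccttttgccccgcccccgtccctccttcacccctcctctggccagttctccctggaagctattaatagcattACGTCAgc

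The motifs were searched on both strands of the 300-base windows. They were the AP-1 element (TGACTCA or TGAGTCA), the cAMP response element TGACGTCA, the CArG box of serum response factor, and TATAAA. After the windows had been read, TGACGT, which is part of the cAMP response element, and TGACATCA, a variant of the AP-1 element, were added. The first 3 had no match in the 7 windows, and they occur in 5.19%, 1.80% and 1.64% of 32544 mouse promoter windows. Sequence further upstream than the windows reach was not searched. The search therefore cannot show whether these genes have such elements there. TGACGT (7.55% of windows) was found at -66 to -61 in Fos and on the opposite strand at -8 to -3 in Atf3. TGACATCA (3.37%) was found at -45 to -38 in Jun, which is known to be regulated by its own product. TATAAA (13.6%) was found at -33 to -28 in Fos and at 1 to 6 in Junb. Positions count from 1 at the annotated start and from -1 backwards. A match is a description of the letters and not of binding.

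The stage labels were set against marker genes. The mean of 6 skin epithelial markers (Cdh1, Epcam, Krt5, Krt14, Trp63 and Dsp) was 12.49 and 12.54 in the keratinocyte lines, 4.07 to 12.82 in the non-spindle lines and 4.13 to 5.31 in the spindle lines. The mean of 7 mesenchymal markers was 4.69 to 5.24, 4.38 to 11.41 and 7.16 to 11.09 in the same groups. Array medians lay between 5.04 and 5.15, so the epithelial markers of some lines labelled non-spindle were, as a mean, no higher than in spindle lines. The melanocyte means reached at most 4.44 and the endothelial means at most 4.99. Immune means reached 5.94, in the non-spindle group.

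Fosl1 was the member that separated carcinoma from keratinocyte lines, and it did so in both carcinoma groups. Its level was 6.11 in C5N and 7.48 in NK. In the non-spindle lines it was 9.03 at the lowest (MSCP1), 9.96 at the median and 11.02 at the highest (MSC12). In the spindle lines it was 9.70 at the lowest (CarC), 10.48 at the median and 11.56 at the highest (D3). Every line of both carcinoma groups lay above both keratinocyte lines, while the carcinoma groups overlapped each other. The group means were 6.80 ± 0.97 (SD, n = 2), 10.01 ± 0.70 (n = 12) and 10.56 ± 0.57 (n = 7).

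The non-spindle lines exceeded the keratinocyte lines in Fosl1 by 3.21 log2 units (SE 0.50), or 9.26-fold, with a limma adjusted p of 0.00151. Fosl1 was the 1 member called among the 7 tested, where 2.02% of all genes tested were called, and it was the 23rd gene of 12641 by p. For spindle against keratinocyte lines the difference was 3.76 (SE 0.52), or 13.5-fold, with a limma adjusted p of 0.000429. Fosl1 was again the 1 member called of 7, against 5.35% of all genes, and the 18th by p. Both comparisons use the same pair of keratinocyte arrays. The reference rests on C5N and NK, which differed by 1.37. Without C5N the non-spindle difference was 2.53 with a limma adjusted p of 0.0748, so that call was lost, and the spindle difference was 3.07 with an adjusted p of 0.0201. Without NK the differences were 3.90 (limma adjusted p = 0.00195) and 4.44 (adjusted p = 0.000663). In these fits the lone keratinocyte line is assumed to vary like the lines of the other groups. The spindle lines exceeded the non-spindle lines by 0.54 (SE 0.31), with a limma adjusted p of 0.324.

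**Figure D1:**
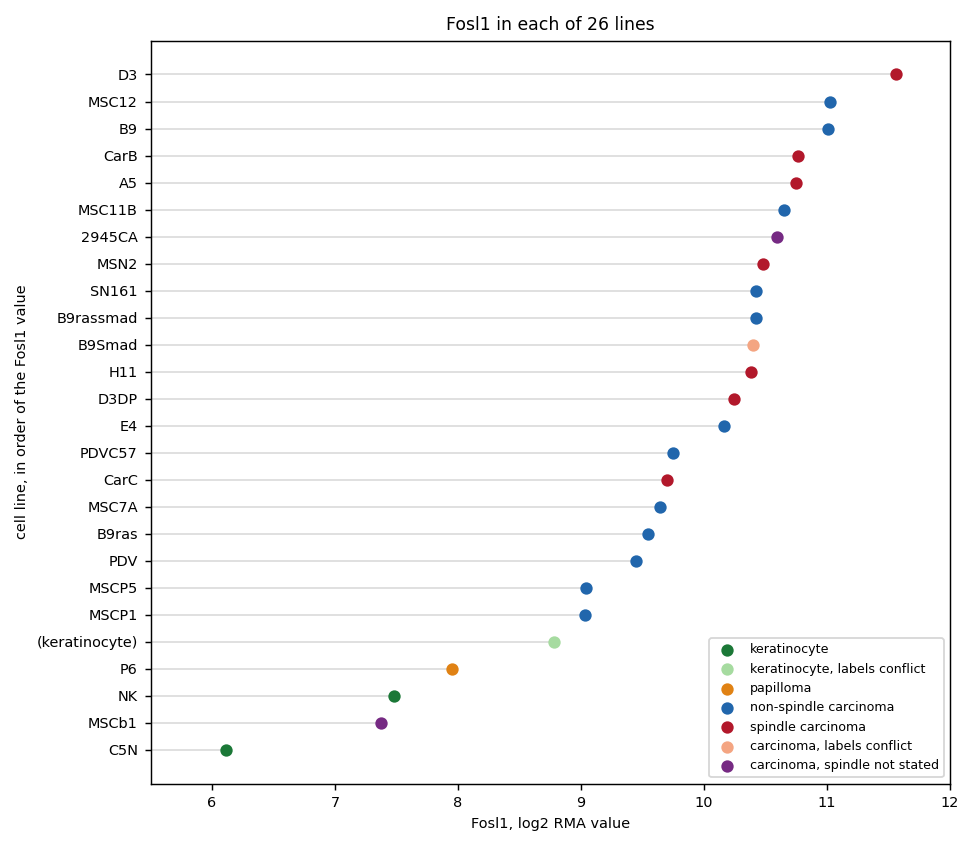
Fosl1 log2 RMA value (horizontal axis) in each of 26 lines, ordered by that value, 1 point per line and coloured by group; the keratinocyte line whose labels conflict is shown without its name. The 4 lowest lines are C5N at 6.11, MSCb1 at 7.37, NK at 7.48 and P6 at 7.95, and every line flagged as a non-spindle or spindle carcinoma lies at 9.03 or above.

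Of the 5 lines outside the main groups, 2 lay between those groups. The papilloma line P6 was at 7.95 and the keratinocyte line of conflicting labels at 8.78, both above NK and below the lowest of the 19 carcinoma lines compared. B9Smad at 10.40 and 2945CA at 10.59 lay among the carcinoma lines. MSCb1, a Spretus/CBA carcinoma line, was at 7.37, between C5N and NK, and was the 1 carcinoma line of the panel in the keratinocyte range. In the order of all 26 lines only 2 of the 25 steps between neighbours exceeded the spread within groups (0.68). The largest was 1.26, from C5N to MSCb1, and all other neighbours but that pair and P6 with the conflicting keratinocyte line were closer than that spread.

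A second Fosl1 probe set gave the same order closely (r = 0.98 over the 26 lines), with differences of 2.32 for non-spindle and 3.02 for spindle lines against keratinocytes. The genes most like Fosl1 over the 26 lines, by Pearson correlation among the genes tested, were Prkg2 (r = 0.82), which encodes a cGMP-dependent protein kinase, Hmga2-ps1 (r = 0.80), by name a pseudogene of Hmga2 whose probe set may also read Hmga2, and Atp10a (r = 0.80), which encodes a lipid-flipping ATPase. Within the 12 non-spindle lines these values were 0.53, 0.51 and 0.34, and within the 7 spindle lines 0.60, 0.70 and 0.70. These are the highest of many correlations, and all points share the lines' stage and families.

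The other Fos-family member with a high signal, Fosl2, was not called in any comparison. Its level was 10.56 in C5N and 9.79 in NK. In the non-spindle lines it ran from 8.27 (MSCP1) through a median of 9.10 to 10.25 (MSCP5). In the spindle lines it ran from 9.14 (MSN2) through a median of 9.29 to 11.19 (CarC), with CarB at 10.46. The groups overlapped, and the high spindle values were those of the Car lines. The difference was -1.11 (SE 0.52, limma adjusted p = 0.4) for non-spindle against keratinocyte lines and 0.68 (SE 0.32, adjusted p = 0.24) for spindle against non-spindle lines. A second Fosl2 probe set followed it only loosely (r = 0.45), with values of -0.25 and 0.36 for these comparisons, and for spindle against keratinocyte lines the probe sets differed in sign, at -0.43 and 0.11. Fosl2 was most like Trafd1 (r = 0.88), a negative regulator of innate immune signalling, Il18 (r = 0.88), a cytokine of epithelial cells, and Dock6 (r = 0.84), a guanine nucleotide exchange factor. Within the spindle lines the correlations were 0.92, 0.99 and 0.96, over 7 points of which the Car lines were the highest.

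Fosb, the remaining Fos relative, was above its array's median on 1 of the 26 arrays. That array was B9, at 5.65, and the next highest was SN161 at 5.06. The other lines lay between 3.58 (MSC12) and 4.51 (2945CA), which is in the background range of these arrays, so no difference between groups is reported for it.

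**Figure D2:**
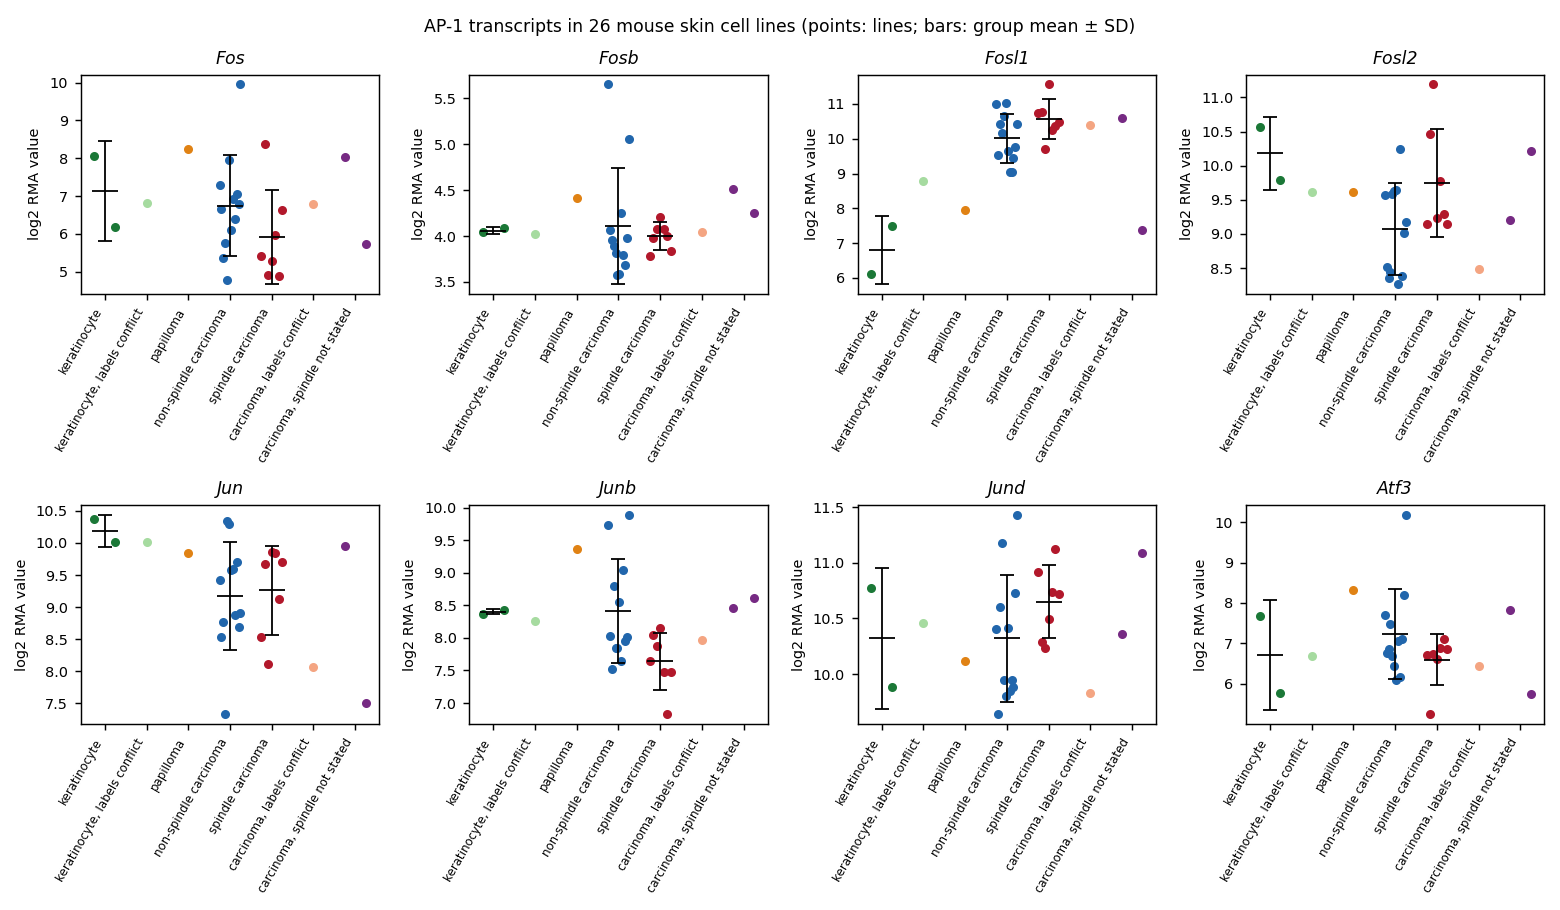
Log2 RMA value (vertical axis, a separate scale for each gene) of the 8 AP-1 transcripts, with 1 point per line and lines grouped by stage; horizontal and vertical bars are the mean ± SD of the keratinocyte (n = 2), non-spindle (n = 12) and spindle (n = 7) groups. The Fosl1 panel is the one in which both carcinoma groups lie wholly above the keratinocyte lines, and SN161 is the highest point of the Fos, Junb, Jund and Atf3 panels.

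Among the Jun proteins, Jun had its highest group mean in the keratinocyte lines. It was at 10.37 in C5N and 10.01 in NK, and at 10.02 in the keratinocyte line of conflicting labels. In the spindle lines it was 8.11 at the lowest (CarC), 9.67 at the median and 9.86 at the highest (D3), so no spindle line reached the keratinocyte lines. In the non-spindle lines it was 7.33 at the lowest (E4), 9.16 at the median and 10.35 at the highest (MSC11B). Only MSC11B and MSC12 (10.29) among them lay above NK. The mean differences were -0.92 (SE 0.59, limma adjusted p = 0.402) for spindle and -1.02 (SE 0.56, adjusted p = 0.523) for non-spindle lines, and neither was called. A second Jun probe set followed the first (r = 0.95), with differences of -0.61 and -0.83. Spindle and non-spindle lines differed by 0.09 (SE 0.35). The genes most like Jun were Lrrc46 (r = 0.71), Mtf1 (r = 0.66), a metal-responsive transcription factor, and Cdc20 (r = 0.60), an activator of the anaphase-promoting complex.

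Junb, which can oppose Jun at some targets, was lower on average in spindle lines, by less than the test requires. It was at 8.37 in C5N and 8.43 in NK. In the spindle lines it was 6.83 at the lowest (H11), 7.65 at the median and 8.15 at the highest (D3). In the non-spindle lines it was 7.53 at the lowest (B9rassmad), 8.03 at the median and 9.89 at the highest (SN161). All 7 spindle lines lay below both keratinocyte lines, but they overlapped the non-spindle lines. The difference was -0.76 (SE 0.31) against non-spindle lines, with a limma adjusted p of 0.18, and -0.75 (SE 0.52) against keratinocytes, with an adjusted p of 0.439.

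Spindle and keratinocyte lines did not overlap for Fosl1, which was higher, and for Jun and Junb, which were lower, or 3 of 7 where 22.9% of all genes tested did not overlap. For non-spindle against keratinocyte lines it was Fosl1 alone, 1 of 7, where 5.66% of all genes did not overlap.

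The genes most like Junb were Pcdh1 (r = 0.82), a protocadherin, Atp8b1 (r = 0.78), a lipid flippase, and Myo5b (r = 0.78), a myosin of vesicle transport. Within the 12 non-spindle lines the correlations were 0.89, 0.94 and 0.82, and within the spindle lines 0.79, 0.18 and -0.11. Those genes and the epithelial markers differ among the non-spindle lines, and their part in the Junb values was not tested.

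Jund, which is expressed steadily in many cell types, varied the least of the 7 tested members. Its SD over the 26 lines was 0.49, equal to the median of all genes tested. The range ran from 9.64 (B9ras) to 11.43 (SN161), and no step between neighbouring lines exceeded the spread within groups. Jund was at 10.77 in C5N and 9.88 in NK, and the differences were 0.00 (SE 0.38) for non-spindle and 0.32 (SE 0.40) for spindle lines against keratinocytes. A second Jund probe set was above the array median on 0 lines and carries no information on Jund. Jund was most like Pip5k1b (r = 0.80), a lipid kinase, Dusp3 (r = 0.80), a MAP kinase phosphatase, and Dtx4 (r = 0.75), a ubiquitin ligase of the Notch pathway.

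Fos was the other widely varying member, with an SD of 1.27 over the lines, next to 1.30 for Fosl1, where 90.9% and 91.4% of the genes tested varied less. The SDs of Atf3, Jun, Fosl2 and Junb were 0.98, 0.86, 0.75 and 0.71. Unlike those of Fosl1, the high and low Fos values were spread over the groups. Fos was at 8.07 in C5N and 6.19 in NK, from 4.79 (MSC11B) through a median of 6.73 to 9.95 (SN161) in non-spindle lines, and at 8.25 in P6. In the spindle lines 6 of 7 values lay between 4.89 (H11) and 6.63 (MSN2), with a median of 5.41, and CarB stood at 8.37. CarC, which shares a name stem with CarB, was at 4.90. The difference was -0.83 (SE 0.59, limma adjusted p = 0.43) for spindle against non-spindle lines, and -1.21 (SE 0.99, adjusted p = 0.527) for spindle against keratinocyte lines. The latter was -0.27 without C5N and -2.15 without NK. Levels on these arrays are averages over a whole culture, so fewer cells carrying a transcript and less transcript per cell cannot be told apart.

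Atf3, a stress-induced factor, also varied within groups more than between them. It was at 7.68 in C5N and 5.77 in NK, and at 8.33 in P6. The non-spindle lines ran from 6.09 (MSC7A) through a median of 6.95 to 10.18 (SN161), and the spindle lines from 5.25 (CarB) through a median of 6.73 to 7.12 (H11). CarB thus had the highest Fos of the spindle lines and the lowest Atf3 of all lines. The groups overlapped, and the differences were 0.50 (SE 0.72) for non-spindle and -0.13 (SE 0.76) for spindle lines against keratinocytes, and -0.63 (SE 0.45, limma adjusted p = 0.437) for spindle against non-spindle lines. The genes most like Atf3 were Vps16 (r = 0.79), of endosomal sorting, 4833407H14Rik (r = 0.79) and Il23a (r = 0.76), a cytokine subunit. Without SN161 these fell to 0.64, 0.56 and 0.54.

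For spindle against non-spindle lines as a whole, limma called 0 of the 7 members at an adjusted p under 0.05, where 0.0633% of all genes were called. At an unadjusted p under 0.05 it took 2 of 7, Junb (p = 0.0226 in limma's fit) and Fosl2 (p = 0.0489), where 20.7% of all genes passed that threshold.

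**Figure D3:**
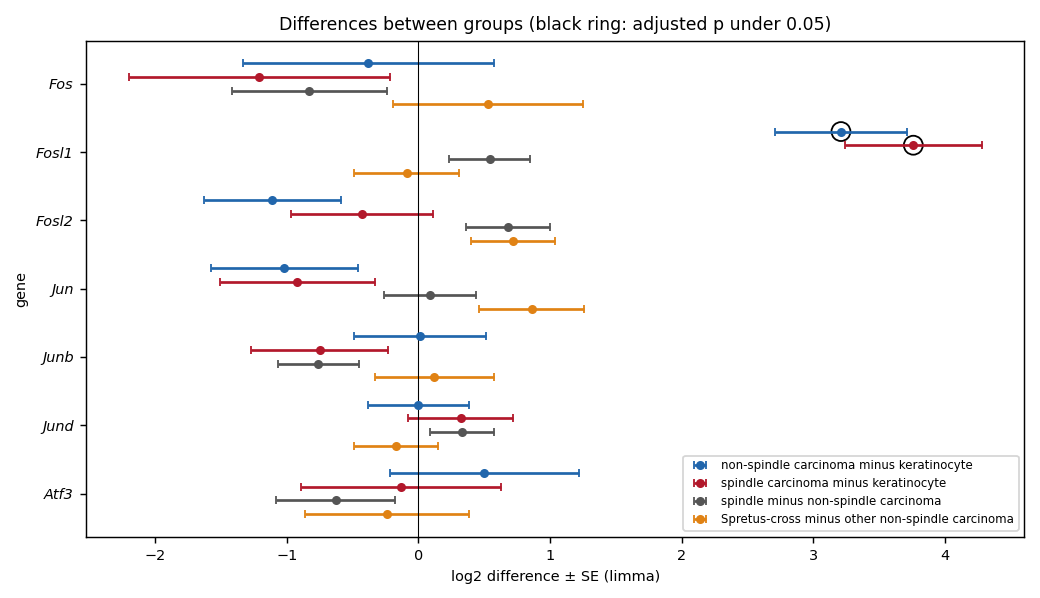
Log2 difference ± SE from limma (horizontal axis) for the 7 tested AP-1 genes in 4 comparisons of groups; a black ring marks an adjusted p under 0.05. The rings fall on Fosl1 alone, at 3.21 and 3.76 against keratinocyte lines, and the other points lie between -1.21 and 0.86.

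The mouse background of the tumour was compared among the 12 non-spindle lines. Between the 6 Spretus-cross lines and the 6 others limma called 0 of 7 members and 0% of all genes. At an unadjusted p under 0.05 it took 1 of 7, Fosl2, where 10.9% of all genes passed. Fosl2 was 9.43 ± 0.66 (n = 6) in the Spretus-cross lines and 8.71 ± 0.49 (n = 6) in the others, a difference of 0.72 (SE 0.32, limma adjusted p = 0.451). Jun was 9.60 ± 0.64 and 8.74 ± 0.83 in the same groups, a difference of 0.86 (SE 0.40, limma adjusted p = 0.458). Fosl1 differed by -0.09 (SE 0.40), with levels of 9.97 and 10.05. Fos differed by 0.53 (SE 0.72, limma adjusted p = 0.806), and by 1.81 (SE 1.09, adjusted p = 0.807) with lines of 1 name family averaged. With that averaging SN161, whose Fos was 9.95, weighs as much as all MSC lines together. Cell type markers differed on average along this division, but not in every line. Of 6 mesenchymal markers tested, all were higher in the Spretus-cross lines, with a median difference of 4.52, and 5 had an unadjusted p under 0.05. All 6 epithelial markers were lower, with a median difference of -3.09, and the epithelial mean was 4.07 in MSC12, 4.96 in MSC11B and 4.16 in MSC7A. No marker was called by limma, and the part of these markers in the Fosl2, Jun and Fos differences was not tested.

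The line SN161 was the highest of 26 for Fos, Junb, Jund and Atf3. Fos was 9.95 there, a step of 1.58 above CarB, the next line, and Atf3 was 10.18, a step of 1.85 above P6. Both steps exceeded the spread within groups, 1.30 and 0.99. TGACGT, which was added after the windows had been read, matched in the Fos and Atf3 windows and not in those of Junb and Jund. Its part in these values was not tested. Junb at 9.89 and Jund at 11.43 were above their next lines by less than that spread. Fosl1 in SN161 was 10.42 and Jun 8.90, both within the range of the other non-spindle lines. Other immediate early genes also peaked in this line, which was singled out after its values were seen. It was the highest of 26 for 8 of 26 immediate early genes tested (30.8%), and for 5.13% of all genes tested. The 8 were Ccn1, Ccn2, Csrnp1, Dusp1, Ier3, Maff, Plk2 and Plk3. Dusp1, a phosphatase of MAP kinases, was 11.44 there against a median of 9.34 over the lines, and Ier3 was 13.63 against 11.77. Egr1, an immediate early factor of the serum response, was 8.37 there against 8.10. SN161 was also the highest for 5 of 24 AP-1 targets in invasion and growth (20.8%). These were Cxcl1 (13.42), Hmox1 (10.53), Lif (10.21), Ptgs2 (13.27) and Vegfa (10.49). Their steps above the next line were 0.72, 0.47, 0.42, 0.21 and 0.04 in that order. B9 was the highest for 4 of the 24 (16.7%), and for 6.25% of all genes tested. The mean of the 3 immune markers tested was 7.46 in SN161, the highest of 26 lines, with 6.60 in the next, 2945CA. SN161 was the highest line for 1 of these 3, Cd68. Cd3e was 5.7 and Csf1r 6.69 in SN161, against means of 5.64 and 6.32 in the non-spindle lines. Cd68, a lysosomal marker of macrophages, was a step of 2.23 above the next line, which was at 7.77, and its median over the lines was 5.64. Ptprc, the marker of all leukocytes, was 3.44 in SN161 and in the background range. The part of other cells in these values was not tested.

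Correlations among the immediate early members differed between pairs and rested in part on single lines. Over the 26 lines Pearson's r was 0.55 for Fos with Junb, 0.50 for Fos with Atf3, 0.44 for Junb with Atf3 and 0.63 for Fosb with Junb. Without SN161 these were 0.40, 0.23, 0.19 and 0.53, and without SN161 and B9, the lines with the highest Fosb, the last was 0.22. Fosb was above its array's median on 1 of the 26 arrays, so its correlations rest mostly on values in the background range. Spearman's rho for Junb with Atf3 was 0.09. Within the 12 non-spindle lines r was 0.53, 0.69, 0.54 and 0.70 for the same pairs, and within the 7 spindle lines it was 0.34, -0.84, -0.61 and 0.33. SN161 was the highest non-spindle line for Fos (9.95), Junb (9.89) and Atf3 (10.18). CarB was the highest spindle line for Fos (8.37) and the lowest for Atf3 (5.25). The values within groups were not computed without these lines, so how far they rest on them is not known. Over the 26 lines Jun had an r of 0.29 with Fos, -0.08 with Junb and 0.00 with Atf3. Fosl1 had correlations between -0.33 (Fosl2) and 0.07 (Fosb) with the other members. The points share 1 array each and their families, and no test is given. Fos correlated positively with 23 of the 26 immediate early genes tested, with a median r of 0.38 (0.39 without SN161), where its median over all genes tested was -0.05. Junb did so with 24 of 26, with a median r of 0.37 (0.29 without SN161), Jun with 19 (0.10 and 0.11) and Atf3 with 17 (0.21 and 0.06). Fosl2 did so with 14 (0.15 and 0.18), Fosl1 with 13 (0.01 and -0.01) and Jund with 13 (0.03 and -0.12). The median of Fosl2 was thus above that of Jun and, without SN161, above that of Atf3. The gene most like Fos was Zfp36 (r = 0.69), an immediate early gene whose product destabilises messenger RNAs, followed by Cntfr (r = 0.66), a cytokine receptor, and Ap1g2 (r = 0.66), a clathrin adaptor subunit.

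**Figure D4:**
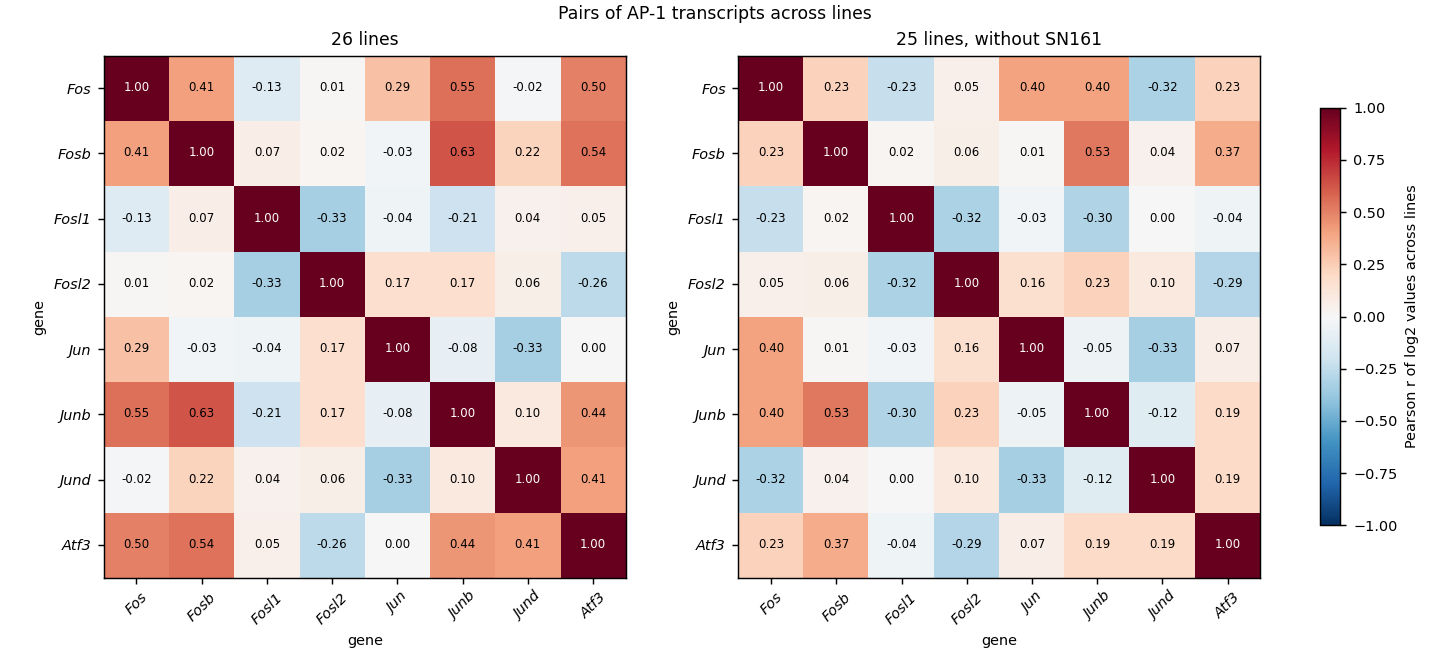
Pearson correlation of log2 values between each pair of AP-1 transcripts, over 26 lines (left) and 25 lines without SN161 (right); the colour runs from -1 (blue) to 1 (red). The pairs among Fos, Fosb, Junb and Atf3, and Jund with Atf3, are the reddest cells, at 0.41 to 0.63 on the left, and several of these fade on the right, as Fos with Atf3 does from 0.50 to 0.23.

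**Figure D5:**
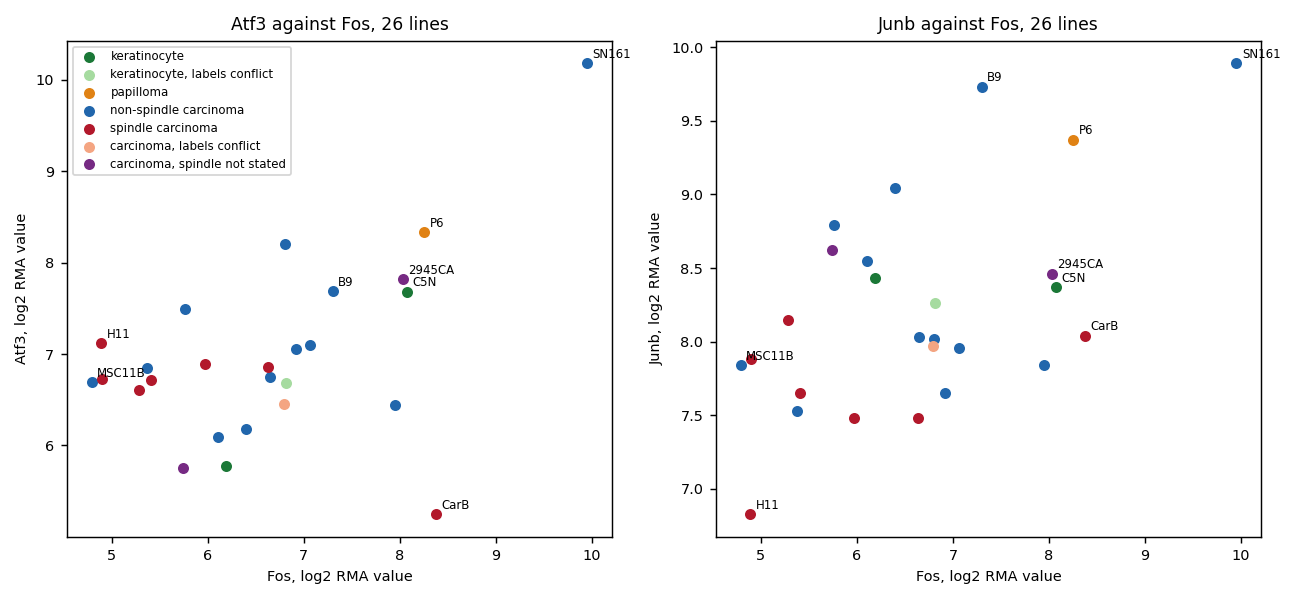
Atf3 (left) and Junb (right) against Fos, log2 RMA values, with 1 point per line coloured by group. SN161 lies at the upper right of both plots, and CarB has a high Fos of 8.37 with the lowest Atf3 of 5.25.

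Lines that share a name stem are set side by side as a description, since the labels do not say how they were derived. Fosl1 was 11.01 in B9, 9.54 in B9ras, 10.40 in B9Smad and 10.42 in B9rassmad. Junb was 9.73 in B9 and 8.03, 7.97 and 7.53 in the same other lines, and Fosb was 5.65 in B9 and at most 4.07 in them. B9 had the highest value of its family for these 3 genes, and also for Fos (7.30), Fosl2 (9.57), Jun (9.43) and Atf3 (7.69). Jund was the exception, at 10.40 in B9 and 10.60 in B9rassmad. In D3 and D3DP, Fosl1 was 11.56 and 10.24 while Jun was 9.86 and 9.85. In PDV and PDVC57, Fosl1 was 9.45 and 9.75, Atf3 7.10 and 8.20, and Jun 9.70 and 8.69. There is 1 array per line, so none of these differences has an error.

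Genes around AP-1 were counted in lists beside the members. Of 22 tested MAP kinases and Fos or Jun regulators, 2 rose in non-spindle against keratinocyte lines and 0 fell, where 2.02% of all genes were called. They were Dusp4, an ERK phosphatase and feedback target, at 2.30 (SE 0.50, limma adjusted p = 0.0161), and Elk3, an ETS factor that binds with serum response factor, at 1.19 (SE 0.29, adjusted p = 0.0349). The median of the list was 0.18, with 0.02 over all genes. In spindle against keratinocyte lines 2 rose, Dusp4 (2.15) and Mapk9, a Jun kinase (0.82, SE 0.19), and 2 fell, where 5.35% of all genes were called. Map3k1, which lies upstream of Jun kinases, fell by 1.64 on the log2 scale (SE 0.46, limma adjusted p = 0.0408), and Fbxw7, which targets Jun for degradation, fell by 0.92 (SE 0.27, limma adjusted p = 0.0497). The list's median was 0.25, with 0.04 over all genes.

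Among 24 tested AP-1 targets in invasion and growth, 3 rose in each carcinoma group against keratinocyte lines and 0 fell, where 2.02% of all genes were called in non-spindle and 5.35% in spindle lines. They were Ereg, Axl and Timp1 in both. Ereg, an EGF-family growth factor, was 3.43 in C5N and 7.77 in NK, from 8.30 to 11.57 in non-spindle lines and from 7.93 to 9.57 in spindle lines. It rose by 3.81 (SE 0.80, limma adjusted p = 0.0124) and 3.13 (SE 0.84, adjusted p = 0.0344). Axl, a receptor tyrosine kinase, rose by 2.13 (SE 0.40) and 2.04 (SE 0.41). Timp1, an inhibitor of metalloproteinases, rose by 2.21 (SE 0.47) and 1.77 (SE 0.49). The list's medians were 1.10 and 0.67. No matrix metalloproteinase tested was called. Mmp14 differed by 1.15 (limma adjusted p = 0.226) in non-spindle lines and Mmp13 by 1.67 (adjusted p = 0.656), with Mmp13 at 9.17 in SN161 and 3.47 in B9rassmad.

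Of 14 tested keratinocyte differentiation genes that AP-1 is known to regulate, 0 were called in non-spindle against keratinocyte lines, where 7 had an unadjusted p under 0.05, and 1 fell in spindle lines. All 14 differences were negative in both comparisons, with medians of -1.73 and -2.45, where 48.3% and 45.9% of the differences of all genes tested were negative. Krt6a, a keratin of activated keratinocytes, was the gene that passed, and it fell by 7.64 in spindle lines (SE 2.20, limma adjusted p = 0.0471). Tgm1, a cross-linking enzyme of the cornified layer, differed by -3.38 (adjusted p = 0.0534) there. The epithelial markers moved with these genes. Of 6, 3 fell in spindle against keratinocyte lines (Cdh1, Epcam and Krt14), with a list median of -8.02, and the part of this in the differentiation genes was not tested.

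Of the 24 other bZIP partners tested, Atf6, a factor of the unfolded protein response, rose in non-spindle lines by 1.87 (SE 0.48, limma adjusted p = 0.0483). In spindle lines Crem, a cAMP-responsive factor, rose by 2.30 (SE 0.54, limma adjusted p = 0.018) and Mafk, a small Maf protein, fell by 2.28 (SE 0.51, adjusted p = 0.0133). The Mafk reference was 12.11 in C5N and 8.72 in NK, and the spindle lines reached 8.33. Of 26 immediate early genes, 0 were called by limma in non-spindle lines against keratinocytes, where 2 had an unadjusted p under 0.05. In spindle lines 2 fell, and with the 2 of 24 bZIP partners these counts stand beside 5.35% of all genes called. Gadd45b, a stress-response gene, fell by 2.57 (SE 0.56, limma adjusted p = 0.011), and Klf4, a factor of epithelial differentiation, fell by 2.22 (SE 0.64, adjusted p = 0.0461). In spindle against non-spindle lines limma called 0 genes of these 5 lists, and the unadjusted p was under 0.05 for 7 immediate early genes, 6 bZIP partners, 2 regulators, 5 invasion and growth targets and 5 differentiation genes, beside 20.7% of all genes tested.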

How the data were processed

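Per the labels' protocols, Trizol and column-cleaned total RNA was made into biotinylated cRNA for Affymetrix M430 arrays. Per the submitters' processing notes, the deposited values were made with RMA and are on the log2 scale; no source used here gives its version or settings. Quantile normalisation hides changes in total RNA per cell. The table holds 45037 probe sets, of which 34945 had 1 gene symbol in the platform annotation, 932 had several and 9160 stayed unnamed here.

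Lines were grouped by cell type label and flags, and a line whose labels conflict or leave the spindle state out entered no comparison. A genotype given in the name of 1 line is not reported here. Group means were fitted over all 12641 genes in R 4.3.3 by the lmFit and eBayes functions of limma 3.58.1, with 21 lines in 1 model and for the Spretus comparison in the 12 non-spindle lines. An adjusted p (Benjamini-Hochberg, over all genes tested) under 0.05 was called. The script was tested on simulated data. The number of arrays limits the precision.

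The genes named are the 8 members, the 3 genes most like each tested member, and members of the lists. The members and lists were chosen with earlier results of these data known. The lists were AP-1 and bZIP partners, immediate early genes, MAP kinases and Fos or Jun regulators, AP-1 targets in invasion and growth, AP-1 targets in keratinocyte differentiation, and markers of cell types. Promoters came from RefSeq (GRCm38.p6). Alternatives changed the filter, the probe set rule, the scaling, the treatment of families and the groups.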

Additional observations from a re-analysis of the deposited data

Results flagged for a closer look

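Single lines were compared with the rest of their group in 36 sets of values, and 4 stood apart by Dixon's test at the 95% level, which chance gives in about 1 of 20 groups. SN161 was far above the other Spretus-cross lines for Atf3, at 10.18, where the gap was 0.762 of the range and the critical value 0.625. For Jund, at 11.43, the gap was 0.626 of the range and only just passed that value. CarB was far below the other spindle lines for Atf3, at 5.25. B9 was far above the other non-spindle lines outside the Spretus crosses for Fosb, at 5.65, where the others were in the background range.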

How the results depend on the processing

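No paired analysis was made, since there is 1 array per line and the labels do not pair the lines. The number of AP-1 members called (1, 1, 0 and 0 for non-spindle against keratinocyte, spindle against keratinocyte, spindle against non-spindle and Spretus-cross against other lines) did not change under any alternative but the one without C5N, which gave 0 for the first (0 to 1 over all fits that leave out 1 line). Of 847 values of single members under alternatives, 809 kept direction and call, 1 lost its call (Fosl1 without C5N) and 37 changed sign, none of them called. For non-spindle against keratinocyte lines, Junb was -0.02 with arrays centred and -0.03 with conflicting lines placed by flags, and Jund was 0.05 with the family as a random block, 0.30 with families averaged, 0.08 without MSC12, MSC11B and MSC7A, and 0.05 with 2945CA and MSCb1 added, a setting chosen after seeing the data. With families averaged the Spretus differences were 0.12 for Fosl1, 0.15 for Jund and 0.92 for Atf3, and that for Fos moved from 0.53 to 1.81. In that setting the Spretus-cross side is SN161, the highest line for Fos, Jund and Atf3, and the mean of the MSC lines, at equal weight. Jun in spindle against non-spindle lines was -0.06 when the cell type label placed the lines of conflicting labels. Leaving out 1 line gave, for non-spindle against keratinocyte lines, -0.46 to 1.46 for Atf3, -1.32 to 0.56 for Fos, -0.13 to 0.09 for Junb and -0.45 to 0.44 for Jund. For spindle against keratinocyte lines it gave -1.09 to 0.83 for Atf3, -2.15 to -0.27 for Fos and -0.12 to 0.77 for Jund, and for spindle against non-spindle lines -0.07 to 0.29 for Jun. For the Spretus difference it gave -0.06 to 0.97 for Fos, -0.30 to 0.10 for Fosl1 and -0.16 to 0.40 for Junb.

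Counts over all genes moved more. For spindle against non-spindle lines limma called 8 genes, with 3 without a filter, 47 with a stricter filter, 5 with the mean of a gene's probe sets, 2 with the family as a random block, 179 with families averaged, 0 with conflicting lines by cell type label, 98 with them by flags, 1954 without MSC12, MSC11B and MSC7A, 3 with 2945CA and MSCb1 added, and 2 to 471 without 1 line. For non-spindle against keratinocyte lines it called 255, with 383 with families averaged, 163 by cell type label, 111 with only these groups fitted, and 147 to 352 without 1 line. For spindle against keratinocyte lines it called 676, with 1252 with families averaged, 1213 with only these groups fitted, and 258 to 765 without 1 line. For the Spretus comparison it called 0, and 0 to 163 without 1 line, where the 163 came without MSCP1. The cause of these moves was not tested. With only 2 keratinocyte lines, the comparisons with them are limited by the number of arrays.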

Other observations

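MSCb1, the carcinoma line with Fosl1 in the keratinocyte range, had mixed levels of the genes that rose beside Fosl1 in the carcinoma groups. Axl was 11.87 and Timp1 11.66 in it, against 9.99 and 9.28 in C5N, and Dusp4 was 10.09, above the highest non-spindle line among those compared (9.91). Ereg was low at 7.78, next to 7.77 in NK and below the lowest spindle (7.93) and non-spindle (8.30) lines. Mmp13, a collagenase, was 12.05 in MSCb1 and at most 9.17 in the non-spindle and 7.49 in the spindle lines, and Klf4 was 6.0, below the lowest spindle line (8.06). Its Jun level of 7.51 was next to the lowest of the panel, 7.33 in E4, and its Fosl2 level of 10.21 was above all but 1 of the non-spindle lines.

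The keratinocyte line of conflicting labels resembled the other keratinocyte lines in Jun (10.02), Junb (8.26) and Krt14 (14.39), while its Fosl1 (8.78), Axl (12.46) and Elk3 (11.50) lay above both.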
